A study of Hordeum vulgare with 12 samples.

Results

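The genes described here form a module of 127 barley genes, of 22437 tested, that were weakly to moderately expressed and higher in the mutants blf13 and nal1 than in their own wild types. A gene was a member when it passed a filter on low counts, averaged 1 to 100 CPM (read counts scaled to library size with TMM factors) over the 12 libraries, had its lowest blf13 library above its highest Bonus library and its lowest nal1 library above its highest Sebastian library, and had a ratio of mutant to wild-type means of at least 1.3 in both. The members were therefore chosen by the measured blf13 against Bonus and nal1 against Sebastian values, and those values are given as a description; where calls of a model on these contrasts are counted, nothing is read from the counts. All 127 had passed the filter on low counts, since that filter is part of how they were chosen. Genes in the same level range numbered 16384, and 0.775% of them were members.

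The groups were blf13, a mutant line in the cultivar Bonus for which the study's title names a gain of function in barley's orthologue of the rice gene NARROW LEAF1, and Bonus itself; and nal1, a mutant in the cultivar Sebastian whose allele the labels do not describe, and Sebastian itself. Plants were 7 days old, and the first leaf had been taken off before the lowest centimetre of shoot, which includes the apex, was frozen. Each group had 3 biological replicates, each of them RNA from a pool of 6 plants, so variation between single plants was not seen. Any other genetic difference between a mutant line and its cultivar is part of the contrast with that cultivar.

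In rice, NARROW LEAF1 encodes a plant-specific protein with similarity to trypsin-like proteases, and loss of its function narrows the leaf and alters vein number and polar auxin transport. A grass leaf grows from its base, where cells of the youngest leaves divide and then expand around the shoot apex. The sampled tissue therefore mixes apex, dividing and expanding leaf cells and older sheath bases. In such bulk RNA, fewer cells of a type and less RNA per cell cannot be told apart.

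The files give IDs in the HORVU.MOREX.r3 style of the barley cultivar Morex, without names. A RefSeq gene table of the same cultivar matched 0 of the 81687 IDs, so the members are given by ID, with no name or role, and no tissue marker could be looked up to check the labelled tissue. The chromosome given for a gene is the one written in its ID. CPM values are not corrected for transcript length, so a level is compared between genotypes within a gene, and the level classes used below are classes of read number.

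Counts in genes ran from 14831979 to 62995658 per library. A member's value rested on 1 to 2306 reads, with a median of 65, and 18 of the 1524 values, in 11 members, rested on fewer than 10. At 65 reads, counting error alone is a coefficient of variation of 12.4%. The median coefficient of variation of the members was 13.7% in blf13, 14.6% in Bonus, 13.6% in nal1 and 19.2% in Sebastian, against 11.6%, 14.1%, 13.3% and 11.1% in the same order for the other genes of 1 to 10 CPM.

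Across the 4 genotypes the median member stood at 2.68 CPM in blf13 and 1.68 CPM in Bonus, and at 3.55 CPM in nal1 and 2.14 CPM in Sebastian. The module was highest in nal1: 106 members had their highest genotype mean there and 21 had it in blf13. The lowest mean lay in Bonus for 95 members and in Sebastian for 32. The choice of members put each mutant mean above that of its own wild type, so no wild type could be highest and no mutant lowest. Both mutant means lay above both wild-type means in 102 members, a count that this choice also bears on. In 20 members the mean in Sebastian was above the mean in blf13.

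**Figure D1:**
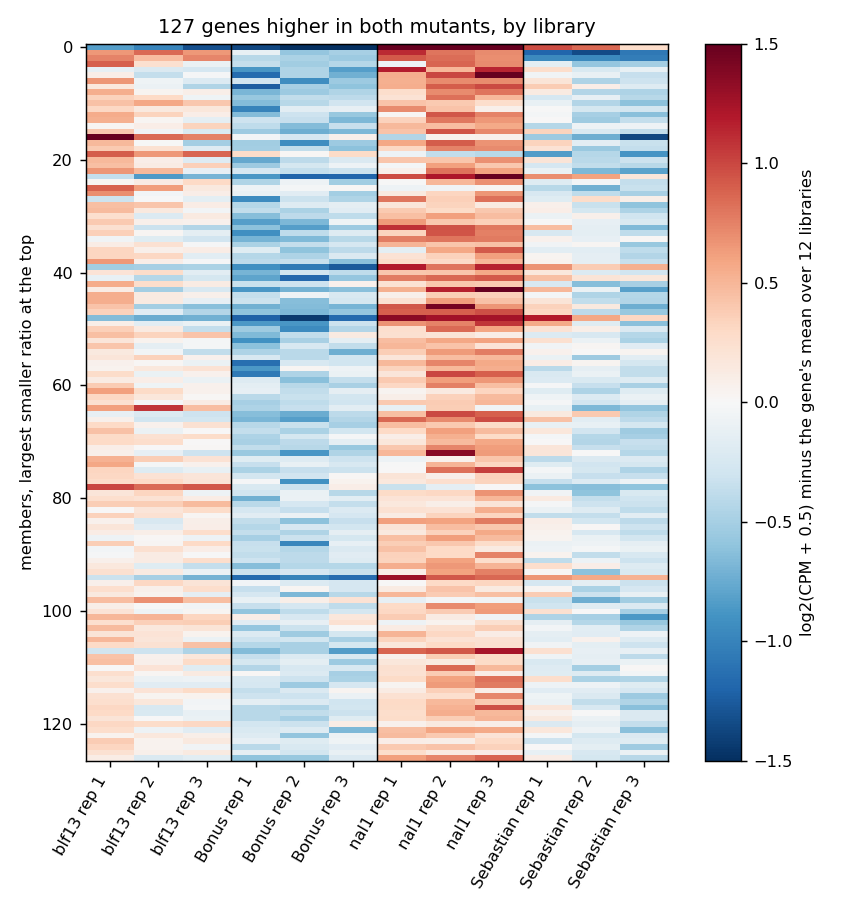
Each row is 1 of the 127 members, ordered by the smaller of its ratios in both mutants, and each column is 1 library (rep, replicate); colour gives log2(CPM + 0.5) minus the gene's mean over the 12 libraries. The nal1 columns are the reddest and the Bonus columns the bluest, and a few rows are red or blue across both genotypes of a cultivar background.

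Summed over the members, the 3 blf13 libraries gave 820, 687 and 666 CPM, against 456, 465 and 523 CPM in Bonus. The 3 nal1 libraries gave 837, 974 and 1001 CPM, against 668, 547 and 476 CPM in Sebastian. No blf13 library overlapped Bonus and no nal1 library overlapped Sebastian, which the way the members were chosen fixes. The mean sums were 724 ± 83.8 CPM in blf13 and 482 ± 36.4 CPM in Bonus, and 938 ± 87.7 CPM in nal1 and 563 ± 97.0 CPM in Sebastian (SD, n = 3 each).

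Most of the increases were modest. The ratio of blf13 to Bonus ran from 1.3 to 3.04 with a median of 1.55, and the ratio of nal1 to Sebastian from 1.31 to 11.9 with a median of 1.69. A ratio of at least 1.5 was reached by 75 members in blf13, by 97 in nal1 and by 65 in both. A ratio of at least 2 was reached by 14 members in blf13, by 23 in nal1 and by 5 in both. The ratio was larger in nal1 for 89 members and larger in blf13 for 38, and in 77 members the ratios were within 1.2 times of each other. Whether a member's increase differed between the mutants was not tested, because both contrasts had chosen the members.

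**Figure D2:**
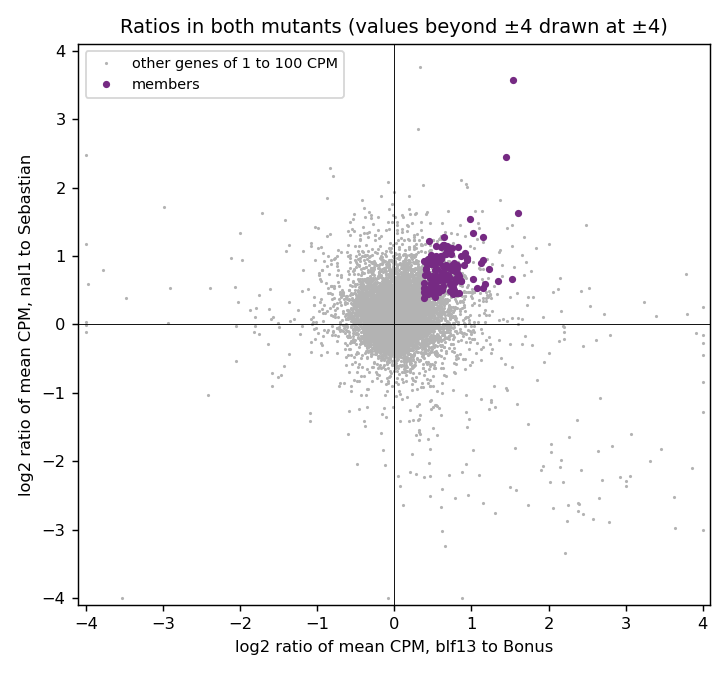
Each point is a gene of 1 to 100 CPM, with the log2 ratio of mean CPM of blf13 to Bonus on the horizontal axis and of nal1 to Sebastian on the vertical axis; the 127 members are purple and the other genes grey. Members fill the corner cut off by the ratio of 1.3 and by non-overlap, a few of them stand apart at the upper right, and grey points inside that corner are genes whose libraries overlapped.

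HORVU.MOREX.r3.1HG0005050, on chromosome 1H, had the largest smaller ratio of the module. It stood at 1.04, 0.869 and 0.594 CPM in blf13, against 0.556, 0.220 and 0.0465 CPM in Bonus. In nal1 it stood at 9.86, 11.3 and 16.1 CPM, against 4.86, 4.44 and 2.80 CPM in Sebastian. The groups of each background did not overlap, and the ratios were 3.04 for blf13 and 3.08 for nal1, but the 6 libraries of the Sebastian background were all above the 6 of the Bonus background. Its lowest Bonus value was a single read.

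HORVU.MOREX.r3.1HG0017340, also on chromosome 1H, had the widest ratio in nal1. Its values were 2.05, 2.43 and 2.06 CPM in blf13, against 1.01, 0.587 and 0.651 CPM in Bonus, and 3.02, 2.33 and 2.16 CPM in nal1, against 0.215, 0.143 and 0.275 CPM in Sebastian. All 6 mutant libraries were above all 6 wild-type libraries, and the ratios of means were 2.91 for blf13 and 11.9 for nal1. The wild types differed while the mutants stood close together.

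HORVU.MOREX.r3.1HG0023140, another gene on chromosome 1H, had a like pattern with less scatter. It stood at 3.24, 2.57 and 3.18 CPM in blf13, against 1.16, 1.1 and 1.02 CPM in Bonus. It stood at 3.69, 3.47 and 3.10 CPM in nal1, against 0.646, 0.644 and 0.582 CPM in Sebastian. The mutant libraries were again all above the wild-type ones, and the ratios were 2.74 for blf13 and 5.48 for nal1.

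The other 2 members with a ratio of at least 2 in both mutants, named after their values were seen, were less even. HORVU.MOREX.r3.4HG0399660 stood at 3.09, 1.77 and 1.29 CPM in blf13, against 1.01, 0.844 and 0.929 CPM in Bonus, and at 1.34, 3.03 and 2.65 CPM in nal1, against 1.25, 0.787 and 0.857 CPM in Sebastian. Its lowest mutant library was barely above its highest wild-type library. HORVU.MOREX.r3.3HG0218800 stood at 0.766, 0.688 and 0.664 CPM in blf13, against 0.253, 0.514 and 0.279 CPM in Bonus, and at 2.62, 1.45 and 2.56 CPM in nal1, against 1.16, 0.680 and 0.776 CPM in Sebastian. Here the Sebastian libraries overlapped those of blf13.

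Of the members with smaller ratios, 2 more were picked after their values were seen. HORVU.MOREX.r3.2HG0129240 had the highest mean level, with 57.0, 38.7 and 45.1 CPM in blf13, against 34.3, 33.6 and 38.0 CPM in Bonus, and 56.1, 66.4 and 90.2 CPM in nal1, against 52.4, 38.8 and 29.6 CPM in Sebastian. Its lowest blf13 library was just above its highest Bonus library, and Sebastian overlapped blf13. HORVU.MOREX.r3.2HG0155170 had the least scatter, with 3.14, 2.75 and 2.90 CPM in blf13, against 2.33, 2.05 and 2.37 CPM in Bonus, and 3.22, 2.90 and 2.85 CPM in nal1, against 2.37, 2.11 and 2.39 CPM in Sebastian. Both its mutant groups stood at about the same level, as did both its wild-type groups.

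The members were weak genes for the level range they were drawn from. Their mean level ran from 1.01 to 48.4 CPM with a median of 2.49 CPM, against a median of 11.5 CPM over the 16384 genes of 1 to 100 CPM. There were 49 members from 1 to 2 CPM, 49 from 2 to 5 CPM and 14 from 5 to 10 CPM, or 88.2% under 10 CPM in all, against 47.0% of all genes in the range. The remaining 15 stood at 10 CPM or more, and none was in the class from 50 to 100 CPM. The share of genes that were members was 2.32% from 1 to 2 CPM, 1.63% from 2 to 5 CPM, 0.544% from 5 to 10 CPM, 0.219% from 10 to 20 CPM, 0.237% from 20 to 50 CPM and 0 of 2149 from 50 to 100 CPM.

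**Figure D3:**
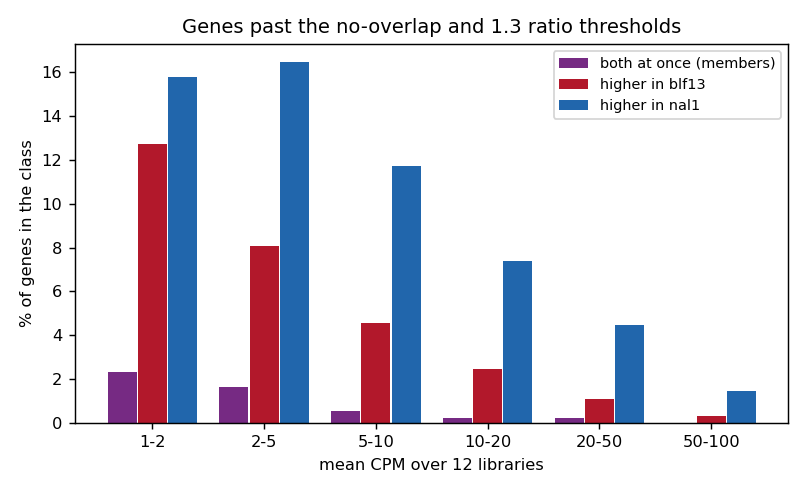
Bars give, for 6 classes of mean CPM over the 12 libraries, the percentage of the genes in the class that had no overlap and a ratio of at least 1.3 in both mutants at once (purple, the members), in blf13 (red) and in nal1 (blue). All 3 percentages are highest in the 2 weakest classes, and the purple bar is absent from 50 to 100 CPM.

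Over all genes of 1 to 100 CPM, the fold changes also went down as the level went up. The median log2 fold change of all genes from 1 to 2 CPM was 0.14 for blf13 minus Bonus and 0.16 for nal1 minus Sebastian, and of those from 50 to 100 CPM it was -0.06 in both. The counting error computed from read number also shrank with level. The median count behind a member's value was 35 reads from 1 to 2 CPM (16.9%) and 598 reads at 10 CPM or more (4.09%). The part of either in the makeup of the module was not tested. A normalization that follows level (cyclic loess) left 88 genes under the same thresholds, of which 84 were members.

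Within the module the ratios were larger among the weaker members. These ratios and the non-overlap chose the members, so the order is a description, and the part of counting error in it was not tested. From 1 to 2 CPM the median ratio was 1.65 in blf13 and 1.77 in nal1. From 2 to 5 CPM it was 1.54 in blf13 and 1.70 in nal1. Among the 15 members of 10 CPM or more it was 1.42 in blf13, with a range of 1.3 to 2.33, and 1.52 in nal1, with a range of 1.36 to 2.01. Those 15 rest on the most reads, with at least 98 in any library.

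Library composition moved with the mutants as well. Genes over 100 CPM took 64.1% to 65.1% of the counts in blf13 and 66.0% to 66.6% in Bonus, and 63.8% to 64.6% in nal1 and 65.3% to 66.0% in Sebastian, with no overlap in either comparison. Reads outside genes, per 100 reads in genes, numbered 4.49 to 6.06 in blf13 and 4.06 to 4.19 in Bonus, and 4.60 to 4.64 in nal1 and 4.35 to 4.48 in Sebastian, again without overlap. The TMM scaling factors were 1.02 to 1.05 in blf13 and 0.935 to 0.980 in Bonus, and 1.01 to 1.03 in nal1 and 0.963 to 0.998 in Sebastian. The part of these differences in the module was not tested.

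**Figure D4:**
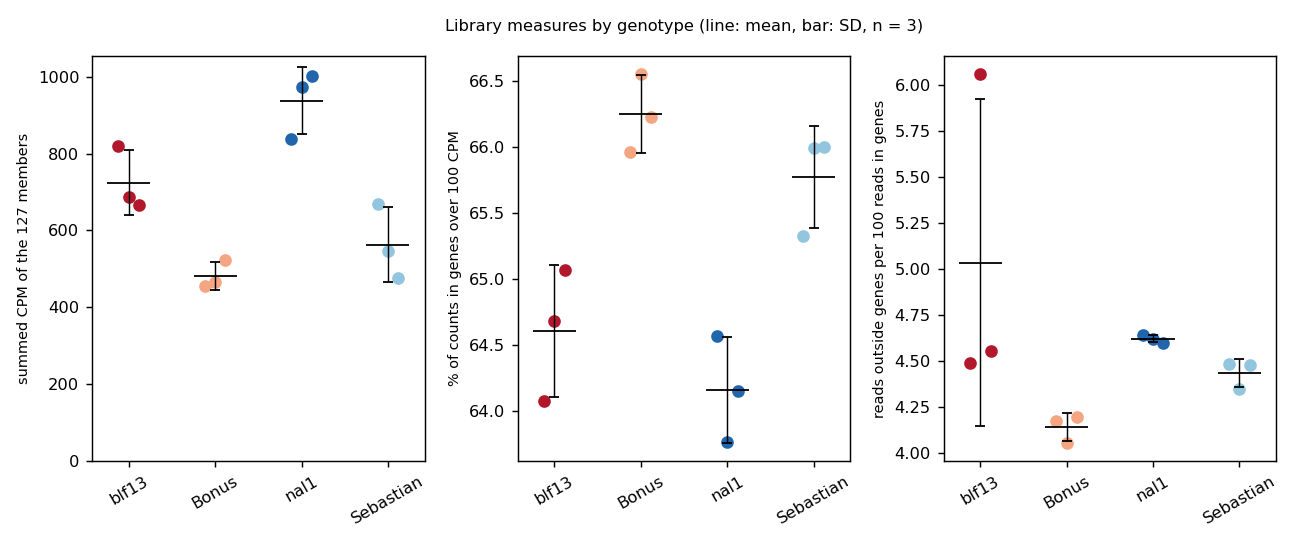
Points are libraries by genotype; the left panel gives the summed CPM of the 127 members, the middle panel the percentage of counts in genes over 100 CPM, and the right panel reads outside genes per 100 reads in genes, with a line at the mean and a bar of 1 SD (n = 3). In all 3 panels the libraries of each mutant lie apart from those of its wild type, and blf13 replicate 2 is the highest in the right panel.

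The order of the replicates within a genotype was uneven for these genes. Within blf13, replicate 1 was the highest library for 95 members, or 74.8%, against 40.8% of the 7582 other genes of 1 to 10 CPM. Within Sebastian, replicate 1 was the highest for 93 members, or 73.2%, against 43.8% of the other genes, and replicate 3 was the lowest for 81 members. Within nal1, replicate 1 was the lowest for 83 members. A total of 74 members were highest in replicate 1 of both blf13 and Sebastian, against 21.6% of the other genes, so members shared deviations between replicates as well as differences between genotypes. Replicate 2 of blf13 stood apart in mapping, with 29.8% of its reads unmapped, and the same thresholds without it gave 159 genes, 123 of them members.

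Membership was often a close call. In 64 members at least 1 of the gaps was under 1.1 times, meaning that the lowest mutant library was less than 1.1 times the highest wild-type library, and both gaps were at least 1.3 times in 6 members. The smaller ratio of the members just inside the threshold was 1.301, 1.302 and 1.303, and 284 genes of this level did not overlap in either comparison when no minimum ratio was asked. Both ratios were at least 1.3 in 515 genes, of which 388 overlapped in at least 1 comparison. A further 71 genes met every criterion but the level, all under 1 CPM, with the nearest at 0.959 CPM, and 0 did so above 100 CPM.

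The number of genes that met the thresholds depended on single libraries. Leaving out blf13 replicate 3 gave 282 genes (125 of them members), and leaving out nal1 replicate 1 gave 257 (119 members). It was 222 when Bonus replicate 3 was left out (122 members) and also 222 when Sebastian replicate 1 was (127 members). With fewer libraries, non-overlap is easier to meet.

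As a description of the same contrasts in a model of counts, the median log2 fold change of the members was 0.64 for blf13 minus Bonus, against -0.01 over all genes tested, and 0.77 for nal1 minus Sebastian, against 0.01. edgeR's quasi-likelihood test, with Benjamini-Hochberg adjustment over all genes at 0.05, called 22 members in blf13, beside a background of 1.21% of all genes called higher, and 90 in nal1, beside 6.12%. It called 16 of them in both mutants and 31 in neither; over all genes tested, 18 (0.0802%) were called higher in both, and the 16 are among them. A block for the replicate number, shared by all 4 genotypes, gave 13 called in blf13 and 86 in nal1, beside 2.20% and 11.6% of all genes. In the fits that follow, brackets give the share of all genes called in either direction, which was 3.19% for blf13 in the main fit. The count in blf13 was 7 without blf13 replicate 1 (0.844%), Bonus replicate 1 (1.26%) or Bonus replicate 2 (0.855%). It was 8 without blf13 replicate 2 (0.875%) and 39 without blf13 replicate 3 (6.61%). It was 13 without Sebastian replicate 2 (1.99%) or 3 (2.12%). The count in nal1 was 29 without nal1 replicate 2 (4.21%) and 31 without nal1 replicate 3 (4.41%). It was 30 without Sebastian replicate 2 (3.78%) and 20 without Sebastian replicate 3 (2.81%), where the main fit had 11.5% of all genes. These counts use the contrasts that chose the members, and nothing is read from them.

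Set against the rest of the genes, increase in both mutants was 1 of 4 possible classes. Taken alone, the thresholds were met by 745 genes, or 4.55%, higher in blf13 than in Bonus and by 1534, or 9.36%, higher in nal1 than in Sebastian. The 127 members were 17.0% of the first list and 8.28% of the second. Genes lower in both mutants by the mirrored thresholds numbered 16, which is 3.82% of the 419 genes lower in blf13 and 3.76% of the 426 lower in nal1. Those lists of 419 and 426 were 2.56% and 2.60% of all genes of 1 to 100 CPM. Genes higher in both outnumbered those lower in both here, but not without a minimum ratio, where 284 were higher in both and 453 lower in both. Without Bonus replicate 3, there were 27 lower in both.

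The mutants also moved many genes of this level in opposite directions. Increases in blf13 with decreases in nal1 were seen in 61 genes. These were 8.19% of all genes higher in blf13, against 2.60% of all genes of 1 to 100 CPM lower in nal1. Decreases in blf13 with increases in nal1 were seen in 103 genes. These were 24.6% of all genes lower in blf13, against 9.36% of all genes of 1 to 100 CPM higher in nal1. A gene that was lower in blf13 was thus found in the nal1-higher list at a larger share than a gene that was higher in blf13. Without blf13 replicate 1 that class of 103 held 162 genes, and without Bonus replicate 3 it held 210. These counts are a description, and the difference between the shares was not tested.

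All 6 mutant libraries were above all 6 wild-type libraries in 52 members, or 40.9%; over all genes of 1 to 100 CPM this held for 92, or 0.562%, and the choice of members bears on that share. The 52 had median ratios of 1.54 in blf13 and 1.61 in nal1, and the other 75 had 1.55 in blf13 and 1.75 in nal1.

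The choice did not compare the wild-type cultivars with each other, but it used their libraries as the lower side of each mutant contrast. Their difference and that between the mutants were fitted with edgeR's quasi-likelihood test over all 22437 genes. For the members, counts, fold changes and adjusted p-values of Sebastian minus Bonus thus also draw on values behind the choice, and are given as a description. Between the wild types, 23 members (18.1%) passed, against 17.6% of all genes, so the members differed between Sebastian and Bonus about as often as other genes. Of these 23, 16 were higher in Sebastian (12.6%, against 8.44% of all genes) and 7 were lower (5.51%, against 9.12%). The median log2 fold change, Sebastian minus Bonus, was 0.22 over the members and -0.0032 over all genes tested, and 95 members were above 0. Without Bonus replicate 1 the count was 14 of the 127 members, with 8 higher and 6 lower, against 14.5% of all genes called.

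Between the mutants, 49 members (38.6%) were called, against 37.3% of all genes. Of these, 43 were higher in nal1 (33.9%, against 20.5% of all genes) and 6 were lower (4.72%, against 16.8%). The median log2 fold change, nal1 minus blf13, was 0.35 over the members and 0.0015 over all genes, and 106 members were above 0. Mutation and cultivar cannot be told apart in this contrast. This contrast equals Sebastian minus Bonus plus the difference of the mutant contrasts that chose the members. Its counts, and its fold changes and adjusted p-values for the members named below, thus draw in part on the values behind that choice. They are given as a description, and the members named were picked by the size of a change or ratio in these same libraries. A total of 18 members (14.2%) were called in both contrasts, against 13.6% of all genes, and 73 (57.5%) in neither, against 58.8%. All 18 had the same direction in both, as had nearly all the genes called in both (13.4% of all genes).

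**Figure D5:**
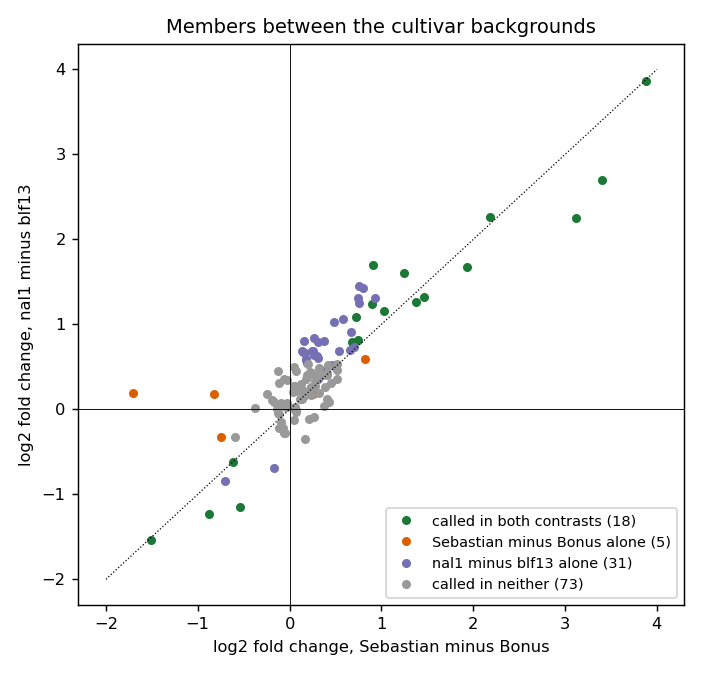
Each point is 1 of the 127 members, with its log2 fold change Sebastian minus Bonus on the horizontal axis and nal1 minus blf13 on the vertical axis; colour gives the contrasts in which edgeR called it at an adjusted p under 0.05, and the dotted line marks equal values. Most members lie right of and above 0. The 18 called in both contrasts lie along the line, 14 of them above 0 and 4 below 0 on both axes.

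HORVU.MOREX.r3.1HG0005050, whose libraries are given above, had the largest difference between the cultivars. Its log2 fold change was 3.88 ± 0.44 for Sebastian minus Bonus (SE, edgeR adjusted p = 2.12e-05) and 3.87 ± 0.33 for nal1 minus blf13 (SE, edgeR adjusted p = 9.71e-07). The 6 libraries of the Sebastian background were the higher ones in both.

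HORVU.MOREX.r3.6HG0581640, on chromosome 6H, had the next largest. It stood at 0.617, 0.543 and 0.559 CPM in blf13, against 0.253, 0.147 and 0.279 CPM in Bonus, and at 3.96, 3.69 and 3.64 CPM in nal1, against 3.49, 2.11 and 1.66 CPM in Sebastian. All libraries of the Sebastian background were above all of the Bonus background, and the log2 fold change was 3.40 ± 0.34 for Sebastian minus Bonus (SE, edgeR adjusted p = 5.14e-06) and 2.69 ± 0.27 for nal1 minus blf13 (SE, edgeR adjusted p = 4.41e-06).

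The largest drop in Sebastian relative to Bonus was that of HORVU.MOREX.r3.1HG0017340. Its log2 fold change was -1.70 ± 0.31 (SE, edgeR adjusted p = 0.00148), while for nal1 minus blf13 it was 0.19 ± 0.22 (SE, edgeR adjusted p = 0.538). HORVU.MOREX.r3.1HG0023140 likewise had -0.82 ± 0.19 for Sebastian minus Bonus (SE, edgeR adjusted p = 0.00658) and 0.18 ± 0.14 for nal1 minus blf13 (SE, edgeR adjusted p = 0.350). Without Sebastian replicate 3 the first of these values for HORVU.MOREX.r3.1HG0023140 was -0.76, with an edgeR adjusted p of 0.0567. For both genes the wild types differed and no difference between the mutants was detected.

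HORVU.MOREX.r3.6HG0540620 was lower in the Sebastian background with and without the mutation. It stood at 2.47, 1.99 and 2.41 CPM in blf13, against 1.42, 1.1 and 1.44 CPM in Bonus, and at 1.01, 0.725 and 0.688 CPM in nal1, against 0.387, 0.680 and 0.356 CPM in Sebastian. Every nal1 library was below every Bonus library. The log2 fold change was -1.5 ± 0.27 for Sebastian minus Bonus (SE, edgeR adjusted p = 0.00129) and -1.54 ± 0.25 for nal1 minus blf13 (SE, edgeR adjusted p = 0.000326).

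HORVU.MOREX.r3.2HG0101720, on chromosome 2H, was lower in nal1 than in blf13. It stood at 7.11, 10.3 and 10.3 CPM in nal1, against 30.6, 18.1 and 17.0 CPM in blf13, and the log2 fold change for nal1 minus blf13 was -1.24 ± 0.25 (SE, edgeR adjusted p = 0.00140). Its wild types stood at 6.58, 5.73 and 3.52 CPM in Sebastian and at 9.56, 8.18 and 10.5 CPM in Bonus. Replicate 1 of blf13 was well above the other two libraries of its group, and no library of nal1 reached any of blf13.

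The members were spread over the genome. Chromosomes 1H to 7H held 16, 21, 23, 12, 18, 20 and 17 members, which is between 0.588% (4H) and 1.01% (6H) of their genes of 1 to 100 CPM, though the 3 members with the largest smaller ratios were all on 1H. In the order of the IDs, 14 pairs of consecutive members lay within 50 IDs of each other. How many such pairs other genes of this level would give was not counted, so no clustering is read from this. One pair was of neighbours, HORVU.MOREX.r3.7HG0659390 and HORVU.MOREX.r3.7HG0659400. The first stood at 13.2, 10.1 and 11.4 CPM in blf13, against 4.96, 7.74 and 10.1 CPM in Bonus, and at 12.3, 22.3 and 20.6 CPM in nal1, against 9.17, 10.1 and 8.27 CPM in Sebastian. The second stood at 1.78, 1.16 and 1.61 CPM in blf13, against 0.455, 1.06 and 0.790 CPM in Bonus, and at 2.62, 3.78 and 5.85 CPM in nal1, against 1.55, 1.47 and 1.18 CPM in Sebastian. Both neighbours had a small gap between blf13 and Bonus, and in both nal1 was the highest genotype.

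The library kit does not mark strand, so reads of a member and of a gene on the other strand could not be separated. Reads assigned to one strand made up 43.7% to 56.7% of those on either strand over the members, with a median of 50.1%. In 3 members (2.36%, against 2.04% of the genes of 1 to 100 CPM) the counts of both strands summed to over 5% more than the unstranded count. They were HORVU.MOREX.r3.6HG0628780 (45.1% more), HORVU.MOREX.r3.3HG0250880 (32.4% more) and HORVU.MOREX.r3.3HG0239600 (5.44% more), and some of their reads were thus counted for no gene in the values used here.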

How the data were processed

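RNA-seq libraries of 4 genotypes, 3 biological replicates each per the labels, were compared. The deposited files hold raw counts of reads per gene, laid out like the gene count table of STAR, and the submitters' processing notes name STAR 2.7.3a. For the genome build, read trimming and read filters, nothing is stated in the sources used here. The unstranded counts were used and the strand columns served as a check; 4 summary lines per file (15.7% to 37.9% of all reads) were removed; in this layout they hold the reads that mapped nowhere, to several places, to no gene or to several genes, so near-identical copies lose reads.

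Low counts were filtered by genotype (edgeR filterByExpr), CPM were scaled by TMM, and edgeR 4.0.16 in R 4.3.3 fitted a quasi-likelihood model with 1 coefficient per genotype to all 22437 genes; adjusted p-values are Benjamini-Hochberg over all of them, with a threshold of 0.05. A standard error is the log2 fold change divided by the square root of its F. The code was tested on simulated data. Libraries of a genotype differed by more than sampling noise (chi-square per degree of freedom 3.98 to 11.8), so none was counted as a repeat.

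Replicate numbers were taken as pairing blf13 with Bonus, because the deviations of same-numbered libraries correlated at 0.235, 0.265 and 0.238. Their differently numbered libraries had -0.173 to -0.0717. Between nal1 and Sebastian the same-numbered values were -0.164, -0.0591 and 0.0834. Values as high also arose between differently numbered libraries elsewhere, with 0.386 for nal1 replicate 1 and blf13 replicate 3, and 0.230 for nal1 replicate 1 and Sebastian replicate 2. The pairing is therefore an assumption. The members and lists were chosen with earlier results of these data known. The IDs named were those with the largest smaller ratio, the largest ratio in each mutant, the largest changes in either direction among members called between backgrounds, and the closest neighbours in ID order, at most 2 each way; others are said to be chosen after their values were seen. Alternatives were DESeq2 1.42.0 (size factors and Wald test), upper-quartile and cyclic loess (limma 3.58.1) scaling, no low-count filter, other ratios and level limits, a replicate block, fits to 6 libraries, a test against a fold of 1.5, and leaving out each library.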

Additional observations from a re-analysis of the deposited data

How the results depend on the processing

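Between Sebastian and Bonus, 11 fold changes of named genes lost the call and 4 gained one over the alternatives run, and between nal1 and blf13 12 lost it; none that had passed changed sign. The number of genes meeting the thresholds was 65 at a ratio of 1.5, 284 with no minimum ratio, 198 with no limits on mean CPM, 193 without replicate 2 of blf13 and Bonus, and 114 to 282 when 1 library was left out. Genes lower in both mutants numbered 28 under cyclic loess, 4 at a ratio of 1.5, 453 with no minimum ratio and 16 to 27 with 1 library left out. Genes with an increase in blf13 and a decrease in nal1 numbered 24 at a ratio of 1.5 and 221 with no minimum, and those with the reverse changes 27 and 364, with 80 to 210 when 1 library was left out. The settings on mean CPM limits and on these 3 opposite or mirrored classes were chosen after seeing the data.

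Members called between Sebastian and Bonus numbered 36 (29 higher, 7 lower) without the low-count filter, where 4870 of 40148 genes were called, and 8 when tested against a fold of 1.5 (6.15% of all genes). With 1 library left out they numbered 14 to 25 (12.9% to 18.2% of all genes). Between nal1 and blf13 they numbered 16 against a fold of 1.5 (10.6% of all genes) and 34 to 54 with 1 library left out (28.8% to 38.4%). The median log2 fold change, nal1 minus Sebastian, was 0.65 to 0.93 with 1 library left out. The cause was not tested, beyond the looser or stricter thresholds that some settings impose. With a replicate block the members called were 21 between Sebastian and Bonus (17.4% of all genes) and 48 between nal1 and blf13 (37.0%). With that block the median log2 fold changes were 0.63 for blf13 and 0.78 for nal1. A block within each background, added after seeing the data, called 10 members in blf13 (1.75% of all genes) and 75 in nal1 (10.3%). Members called in blf13 numbered 69 without the filter and 43 by DESeq2, beside 5.14% and 7.17% of all genes called in either direction. They numbered 11 under cyclic loess (2.02%) and 9 in the fit to 6 libraries (0.746%), against 22 (3.19%) in the main fit. Counts of a few reads limit the weakest members, and pools of plants limit what the spread covers.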
